A study of Mus musculus with 10 samples.

Results

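The circadian clock genes described here are 10 genes fixed by name: Arntl, Per1, Per2, Per3, Cry1, Nr1d1, Nr1d2, Dbp, Tef and Ciart. They are 10 of the 49671 gene IDs in the count files, and all 10 were among the 18060 genes with enough reads to be tested. They were measured by RNA sequencing of whole skin from 5 NPYtet mice (homozygous for the Npytm2Rpa allele on a B6;129S4 background, written tet/tet by the submitters) and 5 WT mice (their wildtype siblings), with 1 library per mouse. The mice were 22 weeks old, and the labels give 3 females and 2 males in NPYtet and 2 females and 3 males in WT. The series title links the allele to Npy overexpression; neither doxycycline treatment nor the hour of tissue harvest is given in the sources used here.

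The clock is a transcriptional loop that runs in nearly every cell of the body. BMAL1, the product of Arntl, pairs with CLOCK or NPAS2 and binds E-boxes (CACGTG), from which the Per, Cry, Nr1d, Dbp, Tef and Ciart genes are switched on; PER and CRY proteins then block the BMAL1 pair, and the REV-ERB receptors made from Nr1d1 and Nr1d2 silence Arntl. In a tissue that keeps time, Arntl therefore peaks at the opposite time of day from Nr1d1 and Dbp, and in skin the loop runs in keratinocytes, fibroblasts and hair follicles.

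The promoters were searched for the short elements that factors of the loop bind. Of the 10 genes, 9 had entries in the RefSeq promoter table, and the 250 bases before each RefSeq start were searched on both strands for the E-box CACGTG, the E-prime-box CACGTT, the D-box TTATGNAA (bound by DBP and TEF, and by their repressor NFIL3) and the ROR and REV-ERB element as TAGGTCA or TGGGTCA. Ciart, Cry1 and Per3, in which several matches lie close together, are shown, 5′ to 3′ on the minus strand of GRCm38.p6, with each match in capitals. The Ciart window lies at chr3:95882263-95882350, the Cry1 window at chr10:85185100-85185144 and the Per3 window at chr4:151044811-151044878, all upstream of the annotated gene.
Ciart: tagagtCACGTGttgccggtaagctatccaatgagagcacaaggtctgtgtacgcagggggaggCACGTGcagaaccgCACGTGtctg
Cry1: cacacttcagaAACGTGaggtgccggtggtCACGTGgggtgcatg
Per3: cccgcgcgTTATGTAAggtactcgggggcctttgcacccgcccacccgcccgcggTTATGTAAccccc
Ciart held 3 E-boxes, Cry1 held 1 E-box and 1 E-prime-box (read on the other strand, as AACGTG), and Per3 held 2 D-boxes. Among 32851 mouse promoter windows of the same length, 6.02% held the E-box, 3.85% the E-prime-box and 3.07% the D-box. Per1 had 1 E-box and 1 D-box, Tef had 1 E-box in each of 2 promoters, and Nr1d1 had 1 E-prime-box. In Arntl, Nr1d2 and Dbp none of these letters was found in the window, and neither ROR element, present in 2.23% (TAGGTCA) and 3.24% (TGGGTCA) of windows, was found in any of the 9 genes.

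The libraries held 23209405 to 53357695 counts. NPYtet replicate 5 and WT replicate 2 stood apart: they had a read in 19953 and 21144 genes, against 24710 to 26323 in the other 8 libraries, and scaling factors of 0.652 and 0.696, against 0.898 to 1.21. Mitochondrial genes took 9.26% of reads in NPYtet replicate 5, against 1.86% to 3.03% in all others. Npy, the gene altered by the allele, was at 96.2 to 485 CPM (counts relative to the scaled library size) in NPYtet and 0.094 to 2.86 CPM in WT, and was the 1 gene called by genotype. NPYtet replicate 1 is labelled female but held 2 reads of Xist and 1513 of the Y-linked Ddx3y. The other libraries labelled female held 14149 to 20177 reads of Xist and 0 of Ddx3y. Those labelled male held 0 to 13 of Xist and 361 to 4078 of Ddx3y. The label of NPYtet replicate 1 was kept in every fit that includes sex. Keratinocyte markers summed to 15685 to 34312 CPM in NPYtet and 9877 to 59416 CPM in WT, and fibroblast markers to 10671 to 73327 CPM in NPYtet and 11300 to 60403 CPM in WT. Hair shaft and root sheath genes, which growing follicles make, summed to 9.76 to 13710 CPM in NPYtet (median 120) and 295 to 26997 CPM in WT (median 19133). In whole skin, fewer cells of a type and less RNA per cell cannot be told apart.

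Compared per length, as CPM per kilobase of annotated exon, Nr1d1 was the most abundant clock gene, with a median level of 30.7 over the 10 libraries, followed by Per1 at 15.1, Tef at 10.2 and Nr1d2 at 9.07. Arntl (5.12), Cry1 (4.62) and Dbp (4.12) came next and did not separate: Arntl exceeded Cry1 in 4 of 10 libraries and Cry1 exceeded Dbp in 5. Ciart (2.63), Per3 (1.86) and Per2 (0.704) were the lowest. Of neighbours in this order, Per1 lay above Tef in 9 libraries and Ciart above Per3 in 9, while Nr1d1 lay above Per1 in 7, and Per3 above Per2 in 7. Per2 rested on 39 reads in NPYtet replicate 5 and 78 in WT replicate 2, and on 136 to 655 in the others. Paralogs were not in a fixed proportion: the ratio of Nr1d1 to Nr1d2 per kilobase ran from 1.97 to 5.27 in NPYtet and from 1.76 to 18.5 in WT, the highest being WT replicate 2.

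How much a gene moved from mouse to mouse also differed within the clock. Between the lowest and the highest library, Dbp spanned 9.26-fold, Nr1d2 5.93-fold, Per1 5.91-fold and Arntl 4.32-fold, while Tef spanned 2.51-fold, Cry1 2.38-fold and Ciart 2.18-fold. Single libraries set some of these spans: without NPYtet replicate 5 Dbp spanned 2.89-fold, below Per1 (5.91) and Nr1d2 (5.19), and without WT replicate 2 as well Arntl spanned 1.83-fold and Nr1d2 3.43-fold. Measured by the SD of log2 CPM over all 10 libraries, NPYtet replicate 5 included, Dbp (0.912) lay above 81.2% and Ciart (0.293) above 4.21% of 15171 genes with a mean of at least 1 CPM, whose median SD was 0.622. Arntl (67.1%) and Per3 (67.3%) lay in the upper part of that range, and Tef (22.5%) and Cry1 (17.7%) in the lower part.

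**Figure D1:**
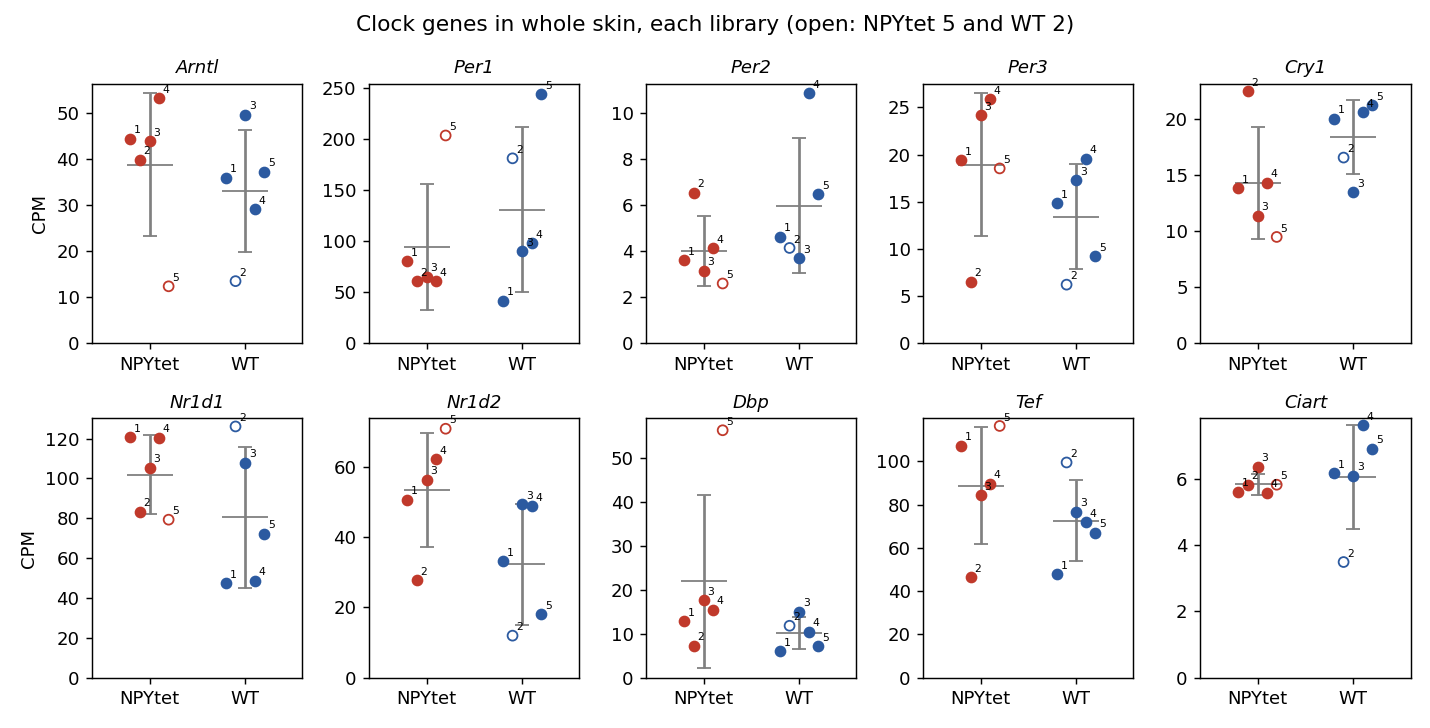
CPM (counts relative to the scaled library size) of the 10 clock genes in each library, NPYtet left and WT right, numbered by replicate; grey bars are the mean and SD of 5 libraries, and open points are NPYtet 5 and WT 2. The genotypes overlap in all 10 genes, Arntl is lowest in the 2 open points (12.3 and 13.4 CPM), and Dbp of NPYtet 5 (56.4 CPM) lies far above the rest.

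The first question was whether the clock genes differed with the Npy allele. None did by the test over all genes. In edgeR, 0 of 10 clock genes passed an adjusted p of 0.05, where 0.00554% of all tested genes did, and 1 of 10, Dbp, had an unadjusted p under 0.05, where 3.59% of genes did (1.46% higher and 2.14% lower in NPYtet). DESeq2 called 0.194% of genes, and no clock gene among them. The CPM of the genotypes overlapped in every clock gene, where 0.305% of all genes did not overlap. By sign, 6 were higher and 4 lower in NPYtet, with a median log2 fold change of 0.17, against -0.01 over all genes. All 10 had an edgeR adjusted p of 0.999. Standard errors ran from 0.30 to 0.47 on the log2 scale, and differences of that size were not detectable with 5 mice a group.

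Arntl (ENSMUSG00000055116) lies on the forward strand of chromosome 7 at 113207465 to 113314126 (GRCm38, the assembly of mm10), and encodes the activator of the loop. It was at 44.4, 39.8, 43.9, 53.1 and 12.3 CPM in NPYtet replicates 1 to 5, and at 35.9, 13.4, 49.6, 29.0 and 37.2 CPM in WT replicates 1 to 5. In each genotype 1 library lay far below the rest, and the other 4 NPYtet values fell between 39.8 and 53.1 CPM, within or close to the WT range. The means were 38.7 ± 15.5 CPM in NPYtet and 33.0 ± 13.2 CPM in WT (SD, n = 5 each). With no sex term the log2 fold change was 0.23, and with sex in the fit it was 0.06 (SE 0.36, edgeR adjusted p = 0.999). Without NPYtet replicate 5 it was 0.33, and without WT replicate 2 as well it was 0.21. With the summed hair CPM as a covariate the sign turned, to -0.49 (edgeR adjusted p = 0.931).

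The Per and Cry genes encode the repressors of the BMAL1 pair. Per1 (chromosome 11, 69095217 to 69109960, forward strand), which also responds to stress hormones and growth signals, was at 80.2, 60.5, 65.2, 60.7 and 204 CPM in NPYtet, and at 41.3, 181, 90.3, 98.1 and 244 CPM in WT. In NPYtet 4 libraries lay within 60.5 to 80.2 CPM and replicate 5 stood far above them, whereas WT was spread over the whole range. Its log2 fold change was -0.17 (SE 0.39) with sex in the fit, -0.48 with no sex term, and -0.47 without NPYtet replicate 5. The 3 libraries highest in Per1 (WT 5, NPYtet 5 and WT 2) had summed CPM of 18 immediate early genes (4 with positive and 14 with negative log2 fold changes) of 3221, 1863 and 3023, and the other 7 libraries had 939 to 1905. Over the genotypes these sums ran from 939 to 1905 CPM in NPYtet and from 949 to 3221 CPM in WT, and their part in Per1 was not tested. The 14 genes of a glucocorticoid response list (4 with positive and 10 with negative log2 fold changes) summed to 865 to 1709 CPM in NPYtet and 999 to 2236 CPM in WT, highest in WT replicates 2 and 5; their part was not tested either.

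Per2 (chromosome 1, 91415982 to 91459324, reverse strand) was at 3.59, 6.52, 3.14, 4.12 and 2.58 CPM in NPYtet, and at 4.62, 4.12, 3.69, 10.8 and 6.47 CPM in WT. Only NPYtet replicate 2 lay above the WT median. Per2 averaged 3.99 ± 1.52 CPM in NPYtet and 5.95 ± 2.93 CPM in WT (SD, n = 5 each), and its log2 fold change was -0.42 (SE 0.39). Cry1 was at 13.8, 22.5, 11.3, 14.3 and 9.46 CPM in NPYtet, against 20.01, 16.5, 13.5, 20.6 and 21.2 CPM in WT. The same NPYtet library was the highest of all 10 in Cry1, and the other 4 NPYtet libraries lay below the WT median. Its log2 fold change was -0.31 (SE 0.30). Per3, whose promoter carries the pair of D-boxes shown above, was at 19.4, 6.49, 24.2, 25.9 and 18.5 CPM in NPYtet, and at 14.8, 6.19, 17.3, 19.6 and 9.23 CPM in WT. In Per3 it was NPYtet replicate 2 that was low, beside WT replicates 2 and 5, and the log2 fold change was 0.31 (SE 0.38). Without NPYtet replicate 5 the Per2, Cry1 and Per3 values came to -0.15, -0.11 and 0.07.

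Nr1d1 and Nr1d2 encode REV-ERB alpha and beta, the repressors that close the loop onto Arntl. Nr1d1 (chromosome 11, 98767932 to 98775333, reverse strand) was at 120.5, 83.3, 105, 120.5 and 79.3 CPM in NPYtet, against 47.5, 126, 108, 48.7 and 72.2 CPM in WT. All 5 NPYtet libraries lay above the WT median of 72.2 CPM, but WT replicate 2 was the highest of all. The log2 fold change was 0.28 (SE 0.33) over the 10 libraries, 0.56 without NPYtet replicate 5 and WT replicate 2, and -0.17 with the hair covariate (edgeR adjusted p = 0.964). Nr1d2 (chromosome 14, 18204054 to 18239127, reverse strand) was at 50.6, 27.8, 56.2, 62.1 and 70.8 CPM in NPYtet, and at 33.2, 11.9, 49.4, 48.7 and 18.1 CPM in WT. Here 4 NPYtet libraries exceeded the highest WT library, by little in the case of replicate 1, and replicate 2 fell inside the WT range. The means were 53.5 ± 16.2 CPM in NPYtet and 32.3 ± 17.2 CPM in WT (SD, n = 5 each), and the log2 fold change was 0.68 (SE 0.39, edgeR adjusted p = 0.999). It was 0.33 without NPYtet replicate 5, and 0.22 without WT replicate 2 as well.

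Dbp and Tef encode PAR-domain activators that read out the clock through D-boxes, and Ciart encodes a further repressor of the BMAL1 pair. Dbp, on the same chromosome as Arntl (chromosome 7, 45705088 to 45710203, forward strand), was at 12.8, 7.25, 17.6, 15.5 and 56.4 CPM in NPYtet, and at 6.09, 11.8, 15.1, 10.4 and 7.18 CPM in WT. NPYtet replicates 1 and 2 lay inside the WT range, replicates 3 and 4 just above it, and replicate 5 stood far above every other library. Dbp averaged 21.9 ± 19.7 CPM in NPYtet and 10.1 ± 3.62 CPM in WT (SD, n = 5 each), and its log2 fold change was 1.11 (SE 0.47; edgeR unadjusted p = 0.0333, adjusted p = 0.999). In edgeR it was 0.20 without NPYtet replicate 5, and 0.27 without WT replicate 2 as well. In limma voom, which weights libraries by quality, it was 0.35 over the 10 libraries.

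NPYtet replicate 5 also lay at an extreme in the sums of some tissue markers. The 7 adipocyte markers all had positive log2 fold changes, 2 of them at an unadjusted p under 0.05 in edgeR. At that level 1.46% of all genes were higher in NPYtet. The 6 fibroblast markers were also all positive, 2 of them at that level, as were the 3 endothelial and 4 sebaceous markers, 0 of them at that level. The adipocyte markers summed to 1458 to 5238 CPM in NPYtet and 904 to 3433 CPM in WT, with NPYtet replicate 5 the highest library. The 3 endothelial markers summed to 53.2 to 199 CPM in NPYtet and 61.1 to 155 CPM in WT, with NPYtet replicate 5 the lowest. WT replicate 2 was next to it in both, at 3433 and 61.1 CPM, and NPYtet replicate 5 lay inside the range of the other libraries in the fibroblast, macrophage, sebaceous and skeletal muscle sums. Their part in the Dbp value was not tested.

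Tef was at 107, 46.4, 84.5, 89.6 and 116 CPM in NPYtet, against 47.7, 99.5, 76.8, 72.0 and 67.0 CPM in WT. NPYtet replicates 1 and 5 lay above every WT library and replicate 2 below them all, and Tef had a log2 fold change of 0.31 (SE 0.32). Ciart was the steadiest clock gene. It was at 5.61, 5.82, 6.37, 5.59 and 5.82 CPM in NPYtet, and at 6.17, 3.49, 6.09, 7.61 and 6.92 CPM in WT, or 5.84 ± 0.314 CPM in NPYtet and 6.06 ± 1.56 CPM in WT (SD, n = 5 each). All 5 NPYtet values fell inside the WT range, and the log2 fold change was -0.06 (SE 0.32).

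**Figure D2:**
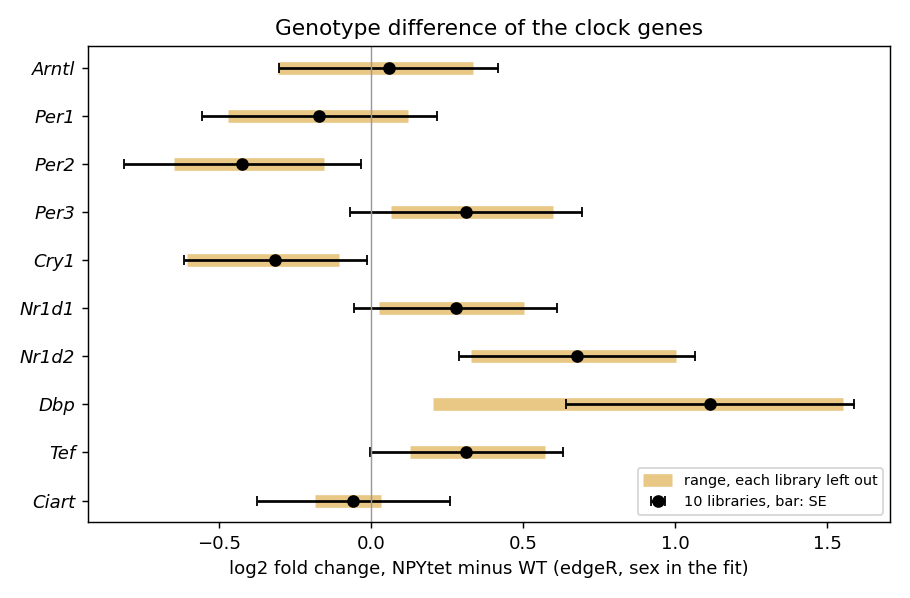
Log2 fold change of each clock gene, NPYtet minus WT, from edgeR with sex in the fit (points, with bars of 1 SE), and the range of the same value when each library is left out in turn (shaded). The range of Dbp runs from 0.20 to 1.55, and those of Arntl, Per1 and Ciart cross 0.

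Among 30 other genes of the clock pathway, 15 had higher and 15 lower values in NPYtet, with a median log2 fold change of -0.05. None passed in edgeR, and 1 had an unadjusted p under 0.05, a share close to the 3.59% of all genes. That gene was Nfil3, which encodes the D-box repressor that opposes DBP and TEF. Nfil3 was at 23.1, 43.5, 19.5, 17.3 and 21.3 CPM in NPYtet, and at 53.4, 79.9, 19.9, 43.0 and 87.5 CPM in WT. NPYtet replicate 2 and WT replicate 3 lay on the side of the other genotype, and the log2 fold change was -0.995 (SE 0.35, edgeR unadjusted p = 0.0118, adjusted p = 0.999), between -1.23 and -0.71 with each library left out in turn. WT replicate 3 was also the WT library with the lowest hair sum (295 CPM), and with the hair covariate Nfil3 was at -0.87. Its unadjusted p in edgeR was 0.135 with that covariate, 0.103 without WT replicate 1 and 0.0549 without NPYtet replicate 5 and WT replicate 2.

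The partners of BMAL1 did not pass either. Clock was at 50.8, 54.9, 47.7, 52.8 and 70.3 CPM in NPYtet and at 37.7, 28.6, 47.8, 50.1 and 35.4 CPM in WT, a log2 fold change of 0.48 (SE 0.26). The lowest NPYtet library, replicate 3, lay below WT replicates 3 and 4, so the groups overlapped there. Npas2 was at 19.0, 7.41, 16.0, 18.9 and 1.12 CPM in NPYtet and at 10.6, 2.80, 15.9, 6.92 and 7.39 CPM in WT, a log2 fold change of 0.02 (SE 0.47). Rora, a receptor that activates Arntl, had 0.67 (SE 0.33, edgeR adjusted p = 0.999). Cry2, the paralog of Cry1, had 0.27, the PAR-domain factor Hlf had 0.15, and the E-box repressor Bhlhe41 had 0.07.

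**Figure D3:**
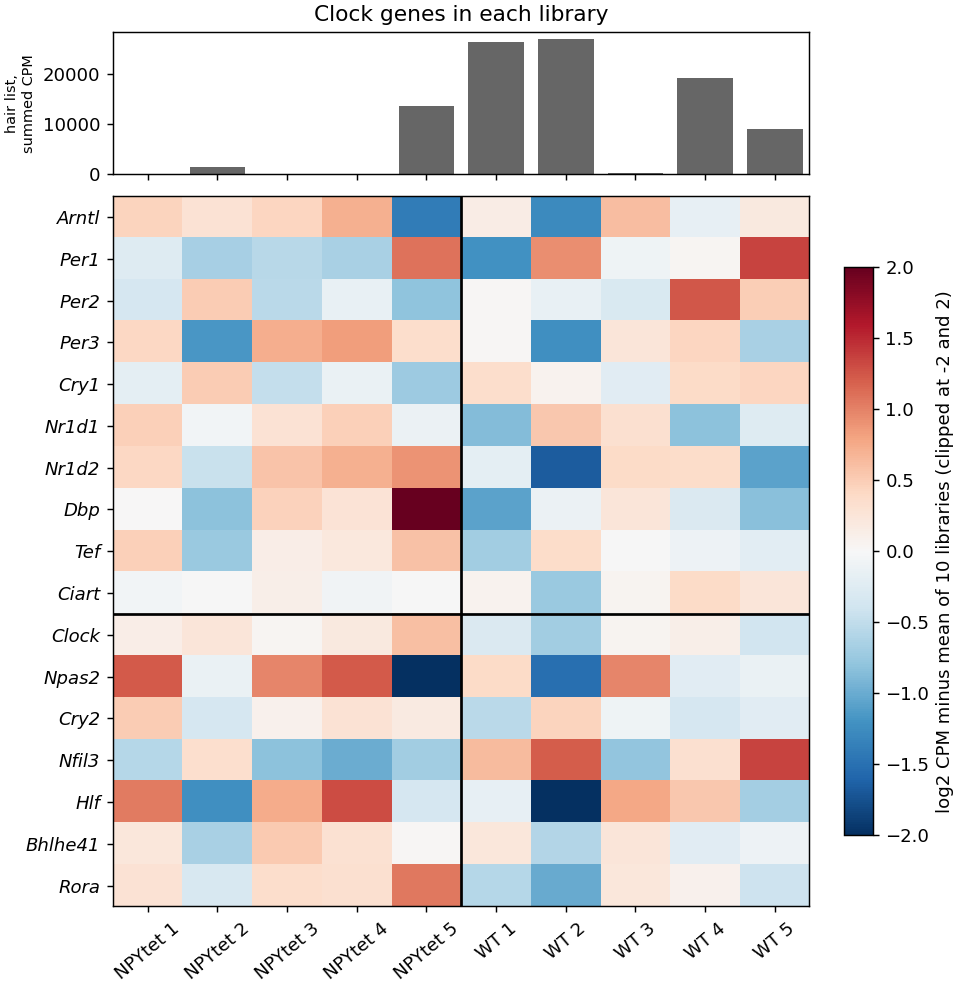
Log2 CPM of 17 clock genes in each library minus the gene's mean over the 10 libraries (colour, clipped at -2 and 2), NPYtet left of WT, with the 10 clock genes above the line and 7 other loop components below it; the bars on top give the summed CPM of the hair list. Arntl and Npas2 are both lowest in NPYtet 5 and WT 2, and the hair bars are highest in WT 2, WT 1, WT 4 and NPYtet 5.

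The second question was whether the Arntl side of the loop and the side it drives stood in opposite positions, and whether that balance differed with genotype. Each library was placed by its log2 CPM of Arntl and by the mean log2 CPM of 8 genes that BMAL1 drives (Per1, Per2, Per3, Nr1d1, Nr1d2, Dbp, Tef and Ciart), each as the deviation from the mean of the 10 libraries; Cry1 was kept apart because its transcript peaks later. Arntl deviated by 0.45, 0.29, 0.43, 0.71 and -1.40 in NPYtet replicates 1 to 5, and by 0.14, -1.27, 0.61, -0.16 and 0.20 in WT replicates 1 to 5. The driven genes deviated by 0.14, -0.42, 0.15, 0.21 and 0.52 in NPYtet, and by -0.49, -0.26, 0.11, 0.15 and -0.11 in WT. NPYtet replicate 5 was the library with the lowest Arntl and the highest driven genes, while in WT replicate 2 both were below their means.

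Arntl minus the driven genes was 0.31, 0.71, 0.28, 0.50 and -1.91 in NPYtet, and 0.63, -1.02, 0.50, -0.32 and 0.31 in WT. The means were -0.02 ± 1.07 in NPYtet and 0.02 ± 0.69 in WT (SD, n = 5 each), a difference of -0.04, far inside the spread of either genotype. With each library left out in turn it ran from -0.30 (without WT replicate 2) to 0.43 (without NPYtet replicate 5), and it was also above 0 without WT replicate 1 (0.11), WT replicate 3 (0.08) or WT replicate 5 (0.03), so its sign was not settled. Within the driven side the genes were not of one mind: in NPYtet replicate 5, 5 of the 8 were above their mean, and in WT replicate 2, 3 were. In NPYtet replicate 5, Dbp (56.4 CPM) and Per1 (204 CPM) lay far above the other NPYtet libraries, while Per2 (2.58 CPM) was the lowest of all 10.

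**Figure D4:**
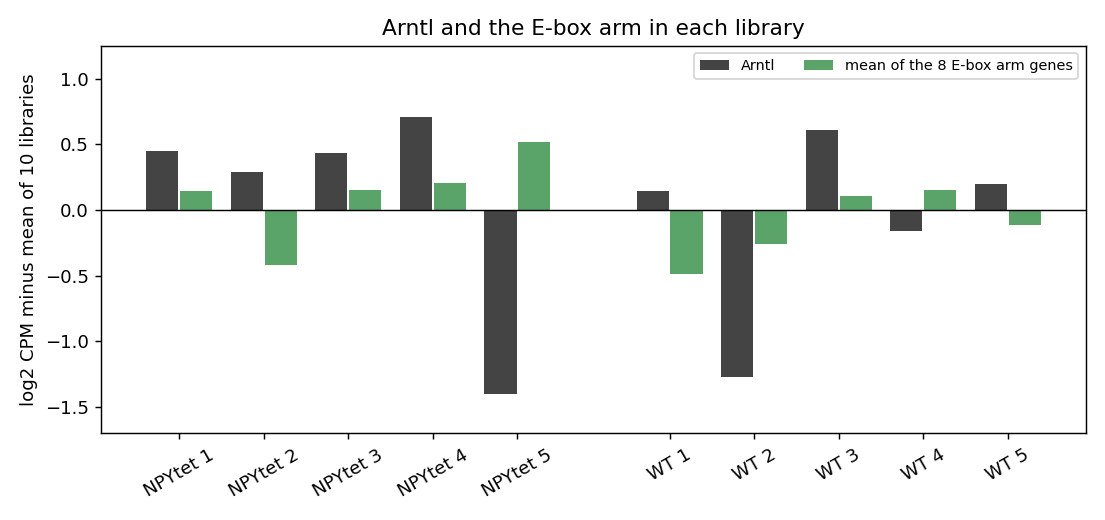
Deviation of Arntl (dark) and of the mean of 8 genes driven by it (green) from the mean of the 10 libraries, in log2 CPM, for each library, NPYtet left of WT. NPYtet 5 has Arntl at -1.40 and the driven genes at 0.52, while WT 2 has both below 0.

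Because the 2 libraries with the fewest detected genes were also the 2 lowest in Arntl by a wide gap (12.3 CPM in NPYtet replicate 5 and 13.4 CPM in WT replicate 2, against 29.0 to 53.1 CPM in the other 8), relations to Arntl are given over those 8 libraries, a choice made after seeing the data. Nr1d1 varied with Arntl across the 8 mice, with r = 0.8999 and rho = 0.905 (exact permutation p = 0.00109 and 0.00456, adjusted over 45 pairs 0.0491 and 0.0685, two-sided), and r = 0.867 without the 2 libraries farthest from the median of Arntl. Dbp (r = 0.623) and Tef (r = 0.470) had the same sign. Per2 went the other way, with r = -0.814 and rho = -0.667 (exact permutation p = 0.0138 and 0.0831, adjusted 0.0888 and 0.156), as did Ciart, with r = -0.800 and rho = -0.786 (exact permutation p = 0.0165 and 0.0279, adjusted 0.0928 and 0.126). Cry1 had r = -0.710, Per1 r = -0.202, Per3 r = 0.314 and Nr1d2 r = 0.421. Without the 2 libraries farthest from the median, Ciart came to r = -0.383, so its relation to Arntl rests on them, and Per2 to r = -0.678. As a description over all 10 libraries, with the 2 low ones included, r with Arntl was 0.0856 for Nr1d1, 0.485 for Ciart, 0.223 for Cry1, 0.172 for Per2, -0.458 for Dbp and -0.399 for Tef, so the relation of Nr1d1 is not seen there and the other 5 have the opposite sign. These correlations leave sex and genotype out, and over the 8 libraries the log2 fold change by genotype was 0.21 for Arntl and 0.56 for Nr1d1. With sex and genotype in the edgeR fit over the same 8 libraries, 0 genes were called for a slope on Arntl. Depth and tissue makeup are shared by all genes of a library, and their part in these relations was not tested.

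**Figure D5:**
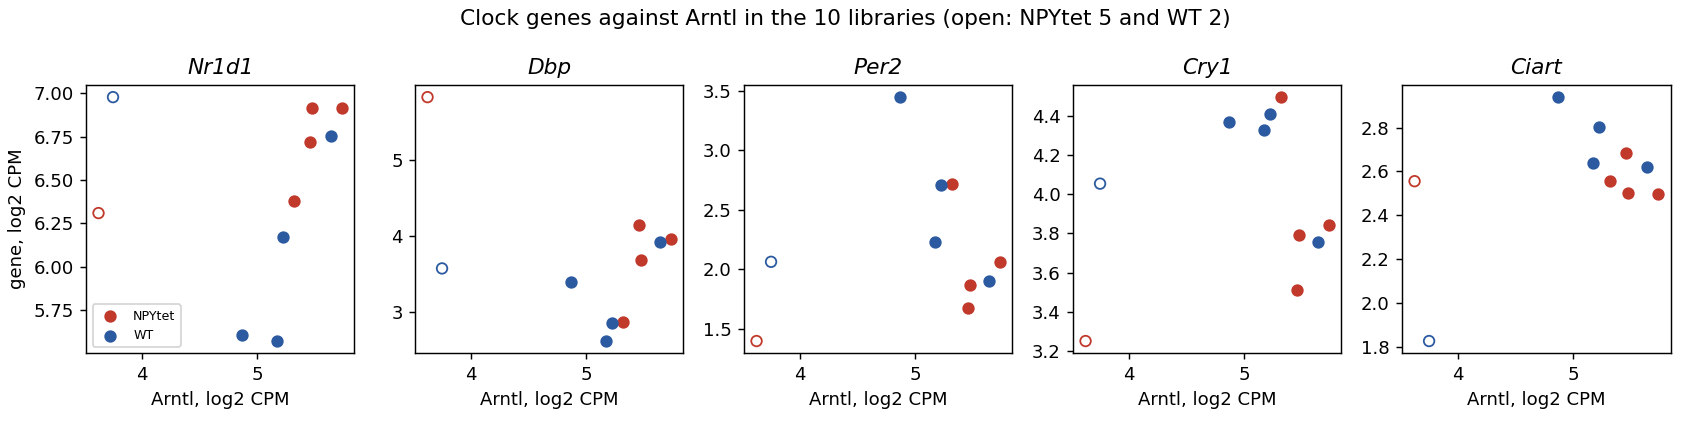
Log2 CPM of 5 clock genes against log2 CPM of Arntl in each library (NPYtet red, WT blue; open points are NPYtet 5 and WT 2). Among the 8 filled points Nr1d1 climbs with Arntl (r = 0.8999) and Per2 declines (r = -0.814), and the 2 open points lie off both trends; over all 10 points r is 0.0856 for Nr1d1 and 0.172 for Per2.

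The 2 low libraries changed these relations. A slope on Arntl was fitted for every gene with edgeR over the 10 libraries, with sex and genotype in the fit: 0 genes passed adjustment, while 26.9% had an unadjusted p under 0.05 (12.9% negative, 14% positive). Of the other 9 clock genes, 6 had negative slopes, 1 of them (Dbp) at an unadjusted p under 0.05, and 3 had positive ones, 1 of them (Per2) at that level. Dbp had a slope of -1.06 log2 units per log2 unit of Arntl (SE 0.38, edgeR unadjusted p = 0.0162, adjusted p = 0.109), and 0.47 without NPYtet replicate 5 and WT replicate 2. Per2 had 0.71 (SE 0.30, edgeR adjusted p = 0.154), and -0.79 without them. Npas2, the alternative partner of BMAL1, had 1.31 (SE 0.28, edgeR adjusted p = 0.0631), and 0.70 without them (adjusted p = 0.825). Arntl2, a paralog of Arntl, had 1.13 at the same adjusted p, and its r with Arntl was 0.882 over the 10 libraries and 0.319 over the 8. Of the 30 other pathway genes, 7 had an unadjusted p under 0.05, near the share over all genes. The r of Npas2 with Arntl was 0.829 over the 8 libraries.

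Among the 45 pairs of clock genes, those that passed adjustment over the 10 libraries did not involve Arntl. Cry1 and Dbp were opposed, with r = -0.910 and rho = -0.879 over 10 libraries (permutation p = 5e-05 and 0.00142, adjusted over 45 pairs 0.00225 and 0.032) and r = -0.906 over the 8. Per2 went with Cry1, at r = 0.861 and rho = 0.952 (permutation p = 0.00084 and 0.0001, adjusted 0.0189 and 0.0045), and r = 0.828 over the 8. Per3 went with Nr1d2, at r = 0.891 and rho = 0.818 (permutation p = 0.00139 and 0.00594, adjusted 0.0209 and 0.0535), and r = 0.874 over the 8. Dbp went with Tef, at r = 0.775 and rho = 0.770 (permutation p = 0.00425 and 0.0122, adjusted 0.0478 and 0.0561), and r = 0.819 over the 8. Leaving out the 2 libraries farthest from the median of the first gene gave r = -0.885, 0.941, 0.903 and 0.692 for these pairs. In all, 4 pairs passed adjustment of Pearson's r over 10 libraries and 1 (Arntl with Nr1d1) over 8, and 32 had the same sign in both. The share of all gene pairs that would pass was not computed, so these counts are not set apart from other genes. High r was common: of 15170 genes, 390 had r above 0.9 with Arntl over the 10 libraries and 264 had r below -0.9.

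The genes most like Arntl were not clock genes. Among 15170 genes with a mean of at least 1 CPM, the highest r with Arntl over the 10 libraries was found for Trim34a (0.986), Naip2 (0.983), 9330175E14Rik (0.982), Acp2 (0.982) and Irf2 (0.980), followed by Prnp, Sh3gl2, Klhl5, Scml4 and Glud1. The lowest was found for Mgst3 (-0.976), Arhgdig (-0.969), Slc25a47 (-0.969), 1110038F14Rik (-0.968) and Mfsd13a (-0.967), followed by Prr7, Ankrd9, 3010003L21Rik, 4930413G21Rik and Aldh16a1. None of these 20 is on the clock lists. Over the 8 libraries a list chosen in the same way shared 0 of the 20 genes and was led by P2rx1 (0.977) and Tcf7 (-0.966). Npas2 had a higher r with Arntl than 99.5% of genes over the 10 libraries and 96.9% over the 8, and Nr1d1 a higher one than 46.6% over the 10 and 99.2% over the 8.

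Sex was the other contrast of the design. With males set against females, 2.48% of all genes passed in edgeR and 0 of 10 clock genes did, while 1 of 10, Per1, had an unadjusted p under 0.05, where 24.6% of all genes did. Per1 was at 60.5 and 204 CPM in NPYtet males and 181, 98.1 and 244 CPM in WT males, against 80.2, 65.2 and 60.7 CPM in libraries labelled NPYtet female and 41.3 and 90.3 CPM in WT females. By label, every male but NPYtet replicate 2 lay above every female; NPYtet replicate 1, labelled female with sex reads that go against it, was at 80.2 CPM, below the WT female replicate 3. The log2 difference, male minus female, was 1.18 (SE 0.39; adjusted p = 0.102 in edgeR). DESeq2, where 2316 of 18060 genes were called by sex, called it at 1.24 (adjusted p = 0.0285). Without a low-count filter, where 2380 of 32857 genes were called by sex, edgeR called it at 1.12 (adjusted p = 0.0389). By sex, edgeR called 2725 of 18321 genes without WT replicate 4 and 433 of 18390 without NPYtet replicate 2. Per1 was called in both (edgeR adjusted p = 0.0382 and 0.0467). The value was 1.29 without NPYtet replicate 1 (edgeR adjusted p = 0.0946) and 0.90 without NPYtet replicate 5 (adjusted p = 0.256). Without NPYtet replicate 5 and WT replicate 2 it was 0.82 (edgeR adjusted p = 0.293). It was 1.63 with the hair covariate (edgeR adjusted p = 0.448) and 0.35 with a replicate block, and neither called it. Arntl was at -0.77 (SE 0.36, edgeR adjusted p = 0.205) and -0.27 without NPYtet replicate 5 and WT replicate 2, both labelled male. Per3 was at -0.67 (SE 0.38, edgeR adjusted p = 0.282). Limma voom, which called 5648 of 18060 genes by sex, called Per3 at -1.18 (adjusted p = 0.0118), and a replicate block gave 0.08. Without NPYtet replicate 1, Arntl was at -0.73 and Per3 at -0.67 (edgeR adjusted p = 0.261 and 0.321). Genotype differences within each sex were not distinguishable: 0 of 10 clock genes had an unadjusted p under 0.05 for the interaction, where 1.63% of genes did, and the largest, Dbp, was at 1.16 (SE 0.94, edgeR adjusted p = 1).

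Since hair genes differed widely among these mice, the clock genes were also set against them. A slope on the log2 summed hair CPM, with sex and genotype in the fit, was called for 1.06% of genes in edgeR and for 0 of 10 clock genes. Their slopes ran from -0.13 (Arntl) to 0.10 (Dbp) log2 units per log2 unit of hair sum, with adjusted p of at least 0.982, and 0 of 10 had an unadjusted p under 0.05, where 4.97% of genes did. All 13 measured hair genes, which define the sum, were called. Nr1d1 had a slope of -0.12, from -0.139 to 0.0039 with each library left out in turn.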

How the data were processed

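The deposited values are raw counts of reads per Ensembl ID, 1 file per library, made by the authors with bcl2fastq, FastQC 0.11.8, Trimmomatic 0.36 and STAR 2.5.2 on mm10, per the submitters' processing notes, which also name DESeq2 1.30.1. Libraries were poly(A), directional and paired-end, per the labels' protocols; neither the strand column nor the annotation release is given in those sources, so a gene and an antisense partner cannot be told apart. Of 49671 IDs, 49326 were matched to symbols of GENCODE M21 (GRCm38), and 345 were not. No pair of libraries of a genotype agreed within sampling noise (lowest chi-square per degree of freedom 27.9), so each counted once.

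The test was edgeR 4.0.16 (R 4.3.3), with filterByExpr (minimum count 10, total 15), TMM scaling and the robust quasi-likelihood test on sex as labelled and genotype. Adjustment was Benjamini-Hochberg over 18060 genes, with a threshold of 0.05. CPM divides counts by the scaled library size; its log2 uses a prior count of 2. Correlations used Python 3.11.15 and SciPy 1.17.1, with exact permutation over 8 libraries and random permutation over 10. Promoters are from RefSeq (GRCm38.p6). The edgeR steps were tested on simulated data.

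The clock genes and all lists were chosen with earlier results of these data known. Named genes are the 10 clock genes, fixed loop components (7 are given, and 1 is not reported here), listed pathway genes at an unadjusted p under 0.05 by genotype or called for the slope on Arntl, and the 10 genes highest and the 10 lowest in r with Arntl; for the list drawn over 8 libraries 2 examples were chosen after their values were seen. Alternatives were DESeq2 1.42.0, limma 3.58.1 voom with quality weights, other scaling and filters, no sex term, a replicate block, the hair sum as covariate and left-out libraries. The sex alternatives, the slope on hair and the 8-library correlations were chosen after seeing the data. The labels do not say that mice come from separate litters or cages, and the p-values measure the spread between these mice.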

Additional observations from a re-analysis of the deposited data

Results flagged for a closer look

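Single libraries stood far from the other 4 of their genotype in 4 of 36 groups of 5 libraries screened. The groups were the 10 clock genes, 7 other loop components and the arm difference, in each genotype. The mark was a gap of over 0.71 of the group's range. Chance marks about 1 in 20 groups when values are normal and groups independent, and normality was not tested for CPM. The groups share the same 10 libraries, and the arm difference includes Per1 and Dbp, so the flags are not independent. NPYtet replicate 5 accounts for 3 of the 4 flags. Its Per1 was at 204 CPM, against 80.2 CPM in the next NPYtet library. Its Dbp was at 56.4 CPM, against 17.6 CPM in the next. Its Arntl minus the mean of the 8 driven genes was -1.91, against 0.28 in the next. The other is Nfil3 of NPYtet replicate 2 at 43.5 CPM, against 23.1 CPM in the next NPYtet library.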

How the results depend on the processing

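Over 210 genotype values of the 10 clock genes under the alternatives, 0 were called and 9 turned sign; calls by sex are given in the report for Per1 and Per3. By genotype, with the hair covariate Arntl was at -0.49 and Nr1d1 at -0.17; with a replicate block Ciart was at 0.10. By sex, Per3 was at 0.0841 with a replicate block. With each library left out, Arntl ran from -0.31 to 0.33, Per1 from -0.47 to 0.12 and Ciart from -0.18 to 0.031. The count of clock genes at an unadjusted p under 0.05 was 0 in limma voom, without NPYtet 5 and WT 2, and without NPYtet 1 as well, and 0 to 1 with each library left out; under the replicate block, and without WT 4, the 1 gene was Nr1d2 and not Dbp. The genes called by genotype were 35 in DESeq2, 2 in limma voom, 409 with no filter, 0 without NPYtet 1, NPYtet 5 and WT 2, and 1 to 8 with each library left out. Those called by sex were 2316 in DESeq2, 5648 in limma voom, 2380 with no filter, 0 with a replicate block, 21 with the hair covariate, 949 without the 3 libraries, and 58 to 2725 with each left out. Same-numbered mice did not all deviate together (r from -0.32 to 0.69), and of the NPYtet mice replicate 3 alone correlated best with its own number in WT, so the replicate block is no pairing from the design. Slopes on Arntl were called for 25 genes with RLE scaling, 4099 without sex and genotype terms, 3 with a replicate block in place of sex, and 0 to 1655 with each library left out (highest without WT 2); negative clock slopes were 3 without those terms, and 3 to 6. Dbp had a slope of 0.47 without NPYtet 5 and WT 2, which are also the libraries farthest from the median of Arntl, and 0.34 without NPYtet 1 as well, and Per2 had -0.79 and -0.83. Slopes on hair were called for 127 genes without NPYtet 5 and WT 2, and 12 to 217 with each left out, where that of Nr1d1 ran from -0.139 to 0.0039. The arm difference ran from -0.30 to 0.43. The cause of these changes was not tested. Per2, at 39 to 655 reads, has the least depth.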
